A study of Mus musculus with 5 samples.

Results

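Genes that mark inhibitory interneurons were followed in RNA-seq data from the hippocampus of mice lacking HDAC1, a histone deacetylase, in the brain. They were taken from the expression tables by name and numbered 10 of the 23361 gene symbols listed for each library: Gad1, Gad2 and Slc32a1, which mark GABAergic neurons of every class, Lhx6, Pvalb and Sst, which mark interneurons born in the medial ganglionic eminence, Vip and Cck, which mark interneurons born largely in the caudal ganglionic eminence, and Npy and Reln, which mark neurogliaform and related cells. The samples were hippocampi of 2 control mice, titled WT with the genotype label Hdac1f/f, which carry the floxed allele and no Cre, and of 3 Hdac1 cKO mice, which carry the same allele together with Nestin-Cre, all 3 months old and, by the study's methods, male. The Nestin promoter drives Cre in neural progenitors, so the gene is deleted in neurons and astrocytes, while microglia keep it, and no cell type was isolated before sequencing. Since the Cre transgene was present in the cKO mice alone, the transgene and the deletion cannot be told apart. Whether littermates were compared was not stated in the sources used here.

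GABAergic interneurons are a minority of hippocampal neurons, and they set the timing and the gain of the excitatory cells around them. They make GABA from glutamate with 2 glutamic acid decarboxylases, load it into synaptic vesicles through a transporter, and divide into classes that contact different parts of the pyramidal cell and that are told apart by calcium-binding proteins and neuropeptides. Those classes arise from separate zones of the embryonic ventral forebrain under distinct transcription factors.

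The values are FPKM, a fragment count scaled to transcript length and library size, and differences are given as log2 fold changes of FPKM + 1 from limma, cKO over control, with 12740 genes of a mean of at least 1 FPKM in the fit. All 10 members passed that filter. Depth, as estimated from the spacing of the lowest FPKM values, was 5.14e+06 to 6.77e+06 fragments per library, and 12680 to 12745 genes reached 1 FPKM in each. The deleted gene checked the labels: Hdac1 read 8.95 and 13.1 FPKM in controls against 1.95, 3.12 and 3.37 FPKM in cKO mice, 25.5% of the control mean, with an adjusted p of 0.219 in limma and of 0.00389 once library sets were in the model. Such sets were seen in genes of under 0.3 FPKM, where libraries of the same set shared the spacing of their values in 24.6% to 28.4% of genes and libraries of different sets in 3.71% to 4.64%. Control 1 and cKO 1 formed set 1, and control 2, cKO 2 and cKO 3 formed set 2. The labels do not name a batch. In whole tissue, fewer cells of a type and less RNA per cell cannot be told apart, and p-values here measure the spread among 5 mice.

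On mm9, the build of the files, GENCODE vM1 places all 10 as protein-coding genes, with Gad1 at chr2:70391129-70440071, Gad2 at chr2:22477725-22549394, Slc32a1 at chr2:158436494-158441484, Lhx6 at chr2:35937470-35960928, Pvalb at chr15:78021544-78036830, Sst at chr16:23889667-23890930, Vip at chr10:4698927-4707323, Cck at chr9:121398943-121404807, Npy at chr6:49772709-49779506 and Reln at chr5:21390272-21850523. The promoters of Slc32a1, Gad1, Gad2, Sst and Vip are shown for the members that handle GABA in every class, and for the peptides Sst and Vip, whose differences by genotype or library set are described below. Each runs from 250 bases before to 50 after the RefSeq start, 5' to 3', on GRCm38.p6: Slc32a1 at chr2:158610508-158610807 on the plus strand, Gad1 at chr2:70561879-70562178 on the plus strand, Gad2 at chr2:22622077-22622376 on the plus strand, Sst at chr16:23890795-23891094 on the minus strand, and Vip at chr10:5638968-5639267 on the plus strand. Capitals mark matches to the GC box GGGCGG, to the cyclic AMP response element (CRE) core TGACG, or to the full CRE palindrome TGACGTCA, on either strand. The palindrome holds a core match on each strand.
Slc32a1: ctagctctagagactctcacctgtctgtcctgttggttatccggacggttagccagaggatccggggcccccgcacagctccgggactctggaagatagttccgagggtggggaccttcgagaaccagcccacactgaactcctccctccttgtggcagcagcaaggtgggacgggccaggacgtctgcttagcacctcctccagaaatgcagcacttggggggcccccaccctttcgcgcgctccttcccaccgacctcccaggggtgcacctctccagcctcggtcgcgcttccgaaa
Gad1: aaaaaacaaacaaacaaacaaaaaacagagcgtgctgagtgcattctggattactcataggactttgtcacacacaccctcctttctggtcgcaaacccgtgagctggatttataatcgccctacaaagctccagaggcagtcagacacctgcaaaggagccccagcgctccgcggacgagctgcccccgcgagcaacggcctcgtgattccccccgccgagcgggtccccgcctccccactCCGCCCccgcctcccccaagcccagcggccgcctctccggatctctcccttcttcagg
Gad2: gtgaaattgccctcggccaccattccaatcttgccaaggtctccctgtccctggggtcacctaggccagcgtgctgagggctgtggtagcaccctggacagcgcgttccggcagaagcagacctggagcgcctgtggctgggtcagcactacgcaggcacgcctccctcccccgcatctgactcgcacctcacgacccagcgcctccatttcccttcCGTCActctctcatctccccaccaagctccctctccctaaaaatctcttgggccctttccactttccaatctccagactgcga
Sst: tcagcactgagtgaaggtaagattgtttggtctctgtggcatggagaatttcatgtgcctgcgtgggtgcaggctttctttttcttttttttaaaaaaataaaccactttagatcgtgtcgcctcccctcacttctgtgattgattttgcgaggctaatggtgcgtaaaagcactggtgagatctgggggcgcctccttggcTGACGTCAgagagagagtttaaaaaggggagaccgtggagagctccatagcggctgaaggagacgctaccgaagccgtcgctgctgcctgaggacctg
Vip: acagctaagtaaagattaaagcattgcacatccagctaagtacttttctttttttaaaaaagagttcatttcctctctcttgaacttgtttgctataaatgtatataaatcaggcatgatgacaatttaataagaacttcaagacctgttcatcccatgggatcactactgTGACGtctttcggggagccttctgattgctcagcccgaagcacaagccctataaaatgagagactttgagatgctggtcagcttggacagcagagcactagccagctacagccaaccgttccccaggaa
RefSeq promoters were found for all 10 members, 13 in number, among 32851 promoters of this length. The GC box was matched in 5 of the 13 member promoters, from 4 members (Gad1, Lhx6, Npy and Reln), and in 35.7% of all promoters. The CRE core was matched in 4 of the 13, from 4 members (Gad2, Sst, Vip and Cck), and in 20.8% of all promoters. The full palindrome was matched in 1 of the 13, that of Sst, and in 1.79% of all promoters. None of these letters occurred in the Slc32a1 window, nor in either Pvalb promoter. A match describes the letters only.

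Few members passed a threshold between genotypes. Of 10 members, 1 passed an unadjusted p of 0.05, against 4.36% of all genes tested, and none passed an adjusted p of 0.05, which 0.00785% of genes did. None passed the study's rule of a fold change of at least 1.5 with an unadjusted p under 0.05, which 0.659% of genes did on the log2(FPKM + 1) scale. That call turns for 1 member with the setting: Slc32a1 passed the rule at a pseudocount of 0.1 (log2 fold change -0.62, unadjusted p = 0.0120), on a common total (TPM, -0.64, unadjusted p = 0.00577) and with the replicate block (-0.63, unadjusted p = 0.00379), and also without cKO 1 (-0.62, unadjusted p = 0.00697) or without cKO 3 (-0.63, unadjusted p = 0.0102). In plain FPKM, with no pseudocount, the cKO mean of Slc32a1 was 65.7% of control, which is past a 1.5-fold fall. The median log2 fold change of the members was 0.0091, with 5 fitted higher and 5 lower, beside a median of 0.0146 over all genes tested. The values of control and cKO libraries did not overlap in 2 members, Slc32a1 and Sst, and in 20.4% of all genes. By level, the members ran from Cck at 448 FPKM on average over the 5 libraries, through Sst at 219, Gad1 at 61.7, Pvalb at 56.9, Npy at 44.7, Gad2 at 16.1, Vip at 15.7, Slc32a1 at 6.71 and Reln at 5.27, down to Lhx6 at 4.21 FPKM. Neighbours in this order overlapped in their ranges for Gad1 and Pvalb, Pvalb and Npy, Gad2 and Vip, Slc32a1 and Reln, and Reln and Lhx6, while the other 4 neighbouring pairs did not overlap.

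**Figure D1:**
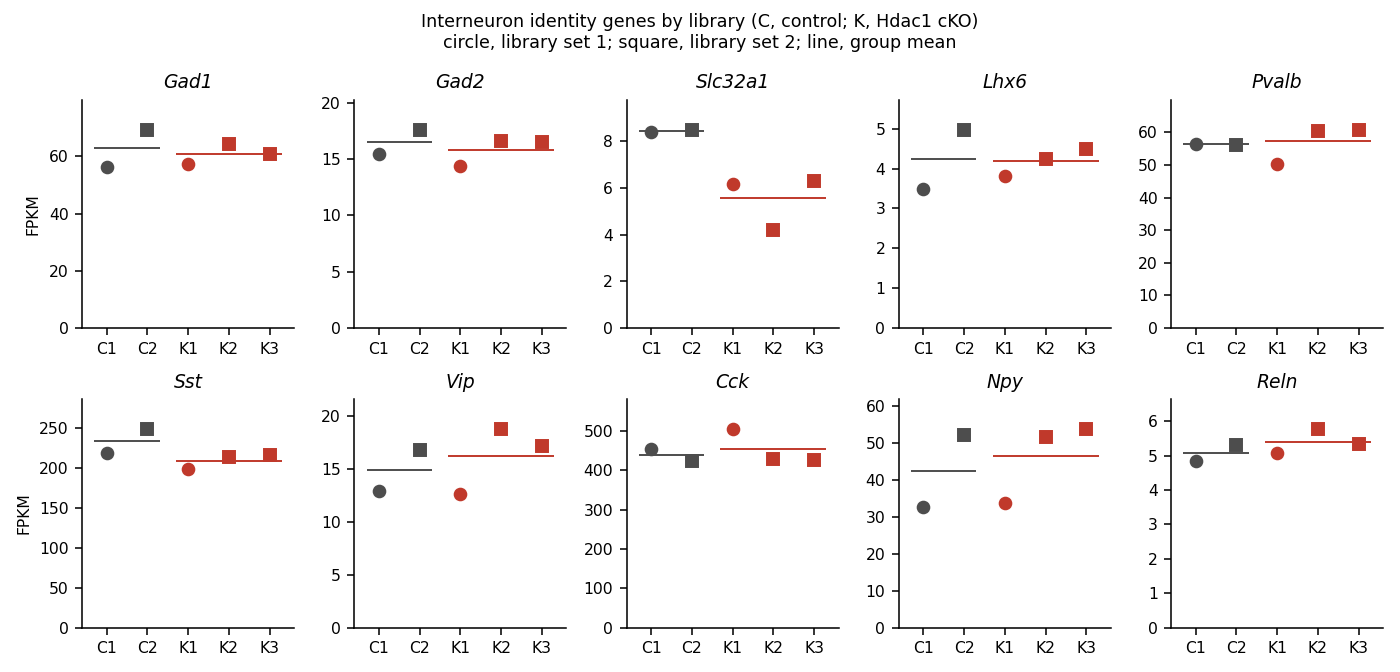
FPKM (vertical axes, from 0) of the 10 members in the 2 control libraries (C1, C2, grey) and the 3 cKO libraries (K1 to K3, red), with circles for library set 1, squares for set 2 and lines for group means. In Slc32a1 the 3 cKO libraries, at 4.20 to 6.31 FPKM, lie below both controls, at 8.40 and 8.50 FPKM, and in Npy both circles lie below all squares.

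The vesicular GABA transporter was the 1 member past an unadjusted p of 0.05 with genotype alone in the model, where 4.36% of all genes were. Slc32a1, which loads GABA and glycine into synaptic vesicles, was at 8.40 and 8.50 FPKM in the control mice, against 6.15, 4.20 and 6.31 FPKM in cKO mice. Both controls lay above every cKO library, and cKO 2 was the lowest. The mean was 8.45 ± 0.0693 FPKM (SD, n = 2) in controls and 5.55 ± 1.17 FPKM (SD, n = 3) in cKO mice, or 65.7% of control. In limma the log2 fold change was -0.54 (SE 0.17, 95% interval -0.93 to -0.16), with an unadjusted p of 0.0113 and an adjusted p of 0.955. Estimated fragments behind these values were 157 and 157 in controls and 116, 60 and 111 in cKO libraries. The difference lay in the same direction within both library sets, -0.39 in set 1 and -0.62 in set 2. Without cKO 2 it was -0.39, with an unadjusted p of 0.0180. Across 17 other ways of processing the data, the log2 fold change stayed between -0.64 and -0.39, and its unadjusted p between 0.00379 and 0.0415.

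The synthesising enzymes overlapped between genotypes, and whether their differences departed from that of the transporter was not tested. Gad1, the decarboxylase that makes most of the cell's GABA, was at 56.5 and 69.4 FPKM in controls and at 57.2, 64.2 and 61.0 FPKM in cKO libraries, with every cKO value inside the control range. Its log2 fold change was -0.04 (SE 0.12, 95% interval -0.31 to 0.22, unadjusted p = 0.721 in limma). Gad2, the synaptic decarboxylase, was at 15.5 and 17.6 FPKM in controls and at 14.4, 16.6 and 16.5 FPKM in cKO libraries, also overlapping. The fitted log2 fold change was -0.06 (SE 0.12, 95% interval -0.33 to 0.21, unadjusted p = 0.632 in limma). Within sets 1 and 2 the differences were 0.02 and -0.15 for Gad1 and -0.10 and -0.08 for Gad2, so that Gad2 was lower in cKO mice within both sets and Gad1 within set 2. With library set in the model the unadjusted p was 0.323 for Gad1 and 0.30 for Gad2. The ratio of Slc32a1 to Gad1 was 0.149 and 0.122 in controls and 0.107, 0.0654 and 0.103 in cKO libraries. The ratio of Slc32a1 to Gad2 was 0.543 and 0.483 in controls and 0.428, 0.253 and 0.382 in cKO libraries. In both ratios the controls lay above every cKO library, as they did in Slc32a1 itself, so the ratios are not separate evidence. How often ratios of other genes separate in this way was not computed. The ratio of Gad1 to Gad2 overlapped, at 3.65 and 3.94 in controls and 3.98, 3.86 and 3.69 in cKO libraries.

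**Figure D2:**
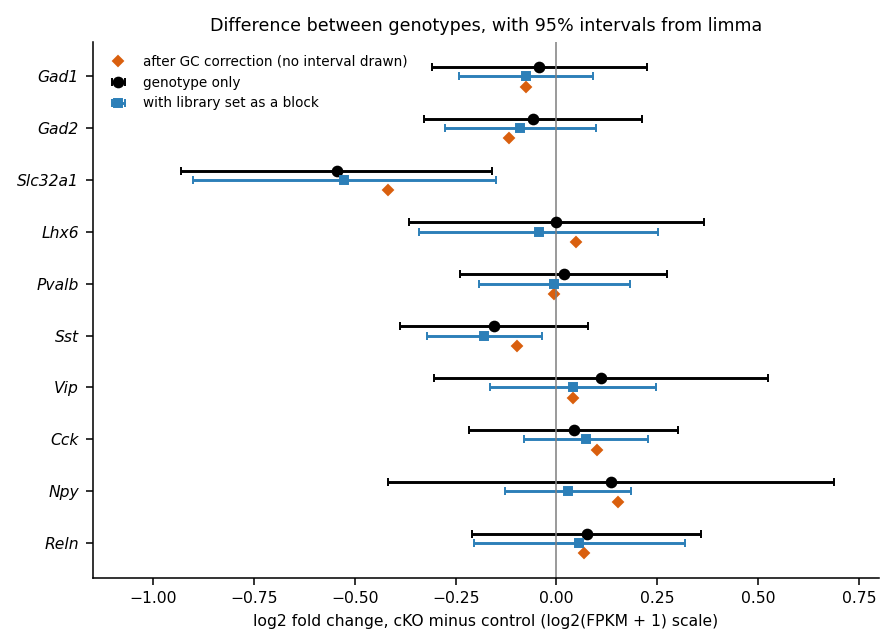
Log2 fold change, cKO over control on the log2(FPKM + 1) scale (horizontal axis), of each member with its 95% interval from limma, for the model of genotype alone (black circles), the model with library set (blue squares) and after GC correction (orange diamonds, drawn with no interval). With genotype alone the interval of Slc32a1, -0.93 to -0.16, is the one among the 10 that leaves out 0, and with library set that of Sst, -0.32 to -0.04, does too.

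The fold changes of all genes varied with base composition. Genes were ordered by the GC content of their longest coding transcript, available for 92.3% of the genes tested, and the median log2 fold change ran 0.07, 0.05, 0.01, -0.02 and -0.09 from the lowest to the highest of 5 equal bins of 2352 genes. In the highest bin the median deviation from the gene means was 0.11 in control 1 and 0.06 in cKO 1, the libraries of set 1, and -0.0048 in control 2, -0.12 in cKO 2 and -0.04 in cKO 3, the libraries of set 2. Its sign thus followed library set, and within each set the cKO libraries lay below the control. Slc32a1 has a GC content of 61.9%, higher than 97.7% of the tested genes with a value. After each library was corrected for GC content by loess, a correction chosen after seeing the data, Slc32a1 had a log2 fold change of -0.42 (SE 0.15, unadjusted p = 0.0212 in limma), where 4.99% of all genes passed an unadjusted p of 0.05. Its exons also share 697 of 2806 bases with the gene Gm14205 on the opposite strand, and strand use in counting was not stated. Of the other members Reln shares 246 of 19845 exonic bases with Gm10475, also on the opposite strand.

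**Figure D3:**
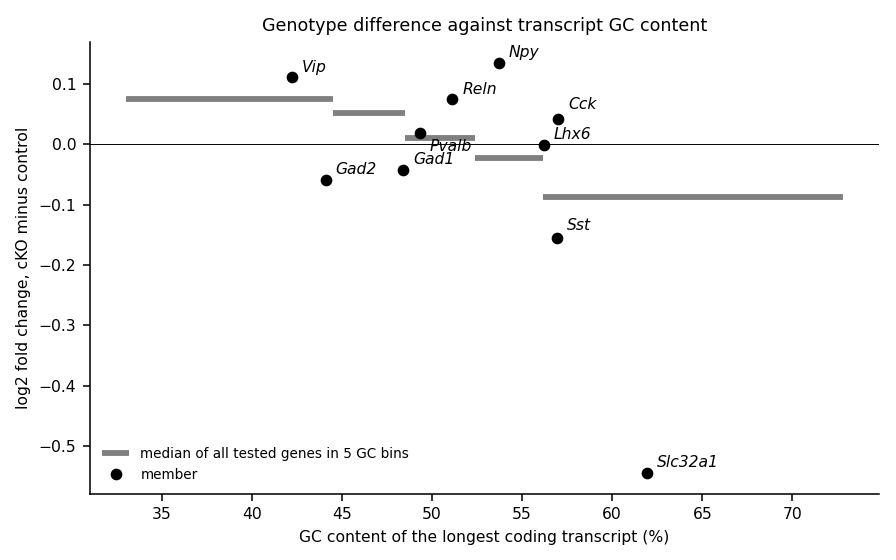
Log2 fold change, cKO over control (vertical axis), against the GC content of the longest coding transcript in percent (horizontal axis), with grey lines for the median of all tested genes in each of 5 GC bins and black points for the members. The medians run from 0.07 to -0.09, and Slc32a1, at 61.9% GC and -0.54, lies below the median of its bin.

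Of the genes of the medial ganglionic eminence lineage, Sst had the lowest fold change, and none passed an unadjusted p of 0.05 with genotype alone in the model. Lhx6, the transcription factor that directs this lineage, was at 3.49 and 4.98 FPKM in controls and at 3.82, 4.24 and 4.50 FPKM in cKO libraries, all inside the control range. Its log2 fold change was -0.000228 (SE 0.16, 95% interval -0.37 to 0.37, unadjusted p = 0.999 in limma). Pvalb, the calcium-binding protein of fast-spiking basket and axo-axonic cells, was at 56.6 and 56.1 FPKM in controls and at 50.5, 60.6 and 60.9 FPKM in cKO libraries, 1 below and 2 above both controls. The log2 fold change of Pvalb was 0.02 (SE 0.11, 95% interval -0.24 to 0.28, unadjusted p = 0.873 in limma). Sst, the peptide of dendrite-targeting interneurons, was at 219 and 249 FPKM in controls and at 199, 214 and 216 FPKM in cKO libraries. Every cKO value lay below both controls, although the highest, 216, was close to control 1 at 219.

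The mean of Sst was 234 ± 21.3 FPKM (SD, n = 2) in controls and 210 ± 9.05 FPKM (SD, n = 3) in cKO mice, 89.6% of control. Its log2 fold change was -0.16 (SE 0.10, 95% interval -0.39 to 0.08, unadjusted p = 0.163 in limma). With library set in the model it was -0.18 (SE 0.06, 95% interval -0.32 to -0.04, unadjusted p = 0.0207, adjusted p = 0.497), and the differences within set 1 and set 2 were -0.13 and -0.21. In that model 2 members passed an unadjusted p of 0.05, Sst and Slc32a1, where 9.34% of all genes did. Sst has a GC content of 56.9%. After GC correction its log2 fold change was -0.10 (unadjusted p = 0.377), and with correction and library set together it was -0.13 (unadjusted p = 0.0546). With genotype alone in the model, it was -0.06 without control 2 and -0.25 without control 1. The ratio of Sst to Pvalb overlapped between genotypes, at 3.87 and 4.43 in controls and 3.95, 3.52 and 3.55 in cKO libraries. The ratio of Sst to Gad1 did not overlap, as Sst itself did not, at 3.87 and 3.59 in controls and 3.48, 3.33 and 3.54 in cKO libraries.

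The remaining members overlapped between genotypes. Vip, the peptide of interneurons that inhibit other interneurons, was at 12.9 and 16.8 FPKM in controls and at 12.7, 18.8 and 17.2 FPKM in cKO libraries. For Vip the log2 fold change was 0.11 (SE 0.18, 95% interval -0.30 to 0.52, unadjusted p = 0.553 in limma). Cck, a peptide of basket cells that is also made by excitatory neurons, was at 455 and 423 FPKM in controls and at 504, 429 and 427 FPKM in cKO libraries. For Cck it was 0.04 (SE 0.11, 95% interval -0.22 to 0.30, unadjusted p = 0.717 in limma). Npy, a peptide of neurogliaform, ivy and many Sst cells, was at 32.6 and 52.1 FPKM in controls and at 33.6, 51.6 and 53.6 FPKM in cKO libraries. For Npy it was 0.13 (SE 0.24, 95% interval -0.42 to 0.69, unadjusted p = 0.590 in limma). Reln, a secreted glycoprotein of neurogliaform and Sst cells and of Cajal-Retzius cells, was at 4.85 and 5.31 FPKM in controls and at 5.09, 5.77 and 5.35 FPKM in cKO libraries. For Reln it was 0.07 (SE 0.12, 95% interval -0.21 to 0.36, unadjusted p = 0.562 in limma). These intervals hold changes of moderate size in both directions, so the members other than Slc32a1 are not shown to be equal between genotypes.

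Several members followed library set more than genotype. With genotype in the model, Npy was higher in set 2 by 0.64 (SE 0.07, adjusted p = 0.0116 in limma), at 33.1 ± 0.758 FPKM (SD, n = 2) in set 1 and 52.4 ± 1.03 FPKM (SD, n = 3) in set 2. Within each set the Npy values of both genotypes lay close together, and the genotype difference with set in the model was 0.03 (95% interval -0.13 to 0.18). Vip was higher in set 2 by 0.42 (SE 0.09, adjusted p = 0.0503 in limma), at 12.8 ± 0.157 FPKM (SD, n = 2) against 17.6 ± 1.03 FPKM (SD, n = 3). Gad1 was higher in set 2 by 0.20 (adjusted p = 0.159) and Cck lower, with a difference of -0.18 (adjusted p = 0.161). With each library left out in turn, the Npy difference was 0.63 to 0.66, with an adjusted p of 0.000463 to 0.0430, and that of Vip 0.36 to 0.47, with an adjusted p of 0.0219 to 0.482. The difference of Gad1 ranged more widely, from 0.13 with control 1 or control 2 left out to 0.29 without cKO 1, and that of Cck from -0.24 with control 1 or control 2 left out to -0.11 without cKO 1. After GC correction the set differences were 0.62 for Npy (adjusted p = 0.0229), 0.32 for Vip (adjusted p = 0.101), 0.10 for Gad1 (unadjusted p = 0.161) and -0.12 for Cck (unadjusted p = 0.0946). Npy, Vip, Gad1 and Cck were the 4 members past an unadjusted p of 0.05 for set, where 22.9% of all genes were, and Npy was the 1 past an adjusted p of 0.05, where 3.09% of genes were. The values of the sets did not overlap in 7 members, against 40.1% of all genes. What set these libraries apart was not stated in the sources used here.

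**Figure D4:**
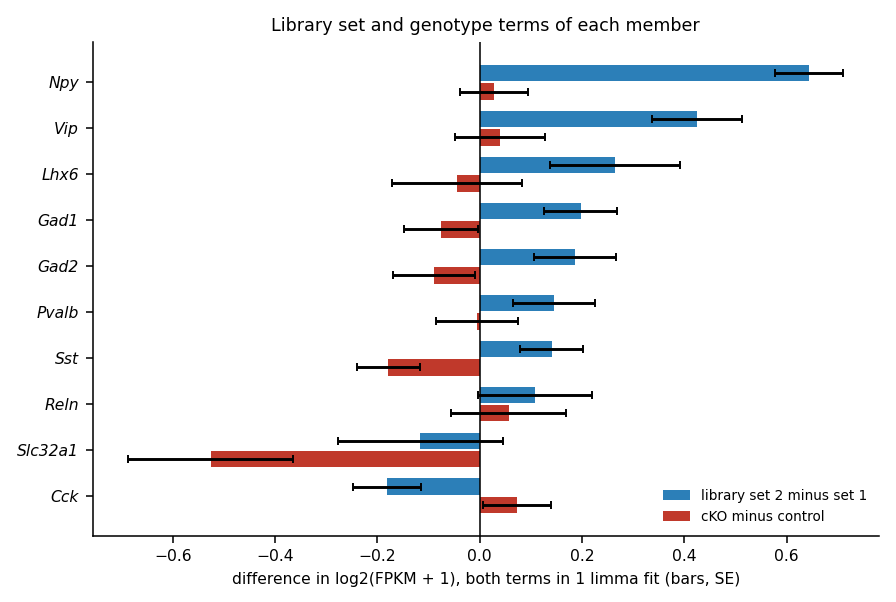
For each member, the difference in log2(FPKM + 1) between library sets (set 2 minus set 1, blue bars) and between genotypes (cKO minus control, red bars), both from 1 limma model, with error bars of 1 SE. Npy has a set difference of 0.64 and a genotype difference of 0.03, while Slc32a1 has a set difference of -0.12 and a genotype difference of -0.53.

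Of 43 other interneuron genes, grouped by role and including genes for GABA handling that are not confined to interneurons, 36 were tested. Of these 15 were fitted higher and 21 lower in cKO mice, 3 passed an unadjusted p of 0.05 (Tac1 higher, Satb1 and Elfn1 lower), where 4.36% of all genes did, and none passed an adjusted p of 0.05 in limma. The median log2 fold change of the 36 was -0.06, beside 0.0146 over all genes tested, and it was -0.04 without control 2, -0.02 without cKO 1, -0.01 without cKO 2 and -0.13 on a common total (TPM). None of the 4 genes for GABA uptake and breakdown passed an unadjusted p of 0.05 with genotype alone in the model, but in 3 of them, Slc6a11, Abat and Aldh5a1, every cKO library lay below both controls, where the groups did not overlap in 20.4% of all genes. The 4 genes summed to 135 to 138 FPKM in controls and 127 to 129 FPKM in cKO libraries. Abat, the GABA transaminase that breaks GABA down, was at 74.8 and 75.3 FPKM in controls and at 69.7, 73.6 and 73.4 FPKM in cKO libraries (log2 fold change -0.05, unadjusted p = 0.557). Its exons share 2315 of 7748 bases with Gm9851 on the opposite strand, so its values are uncertain. Slc6a11, a GABA transporter of astrocytes, was at 35.3 and 33.9 FPKM in controls and at 33.3, 28.4 and 27.8 FPKM in cKO libraries, with a log2 fold change of -0.21 (unadjusted p = 0.0913) and, with library set in the model, of -0.19 (unadjusted p = 0.0429, adjusted p = 0.525). Without cKO 1 it was -0.29 (unadjusted p = 0.0296).

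Of 13 transcription factors, 7 were tested, 3 fitted higher and 4 lower, with a median log2 fold change of -0.16, which was -0.03 without control 1. Satb1, a chromatin organiser needed for maturation of Sst and Pvalb cells and also made by other neurons, was at 17.6 and 19.5 FPKM in controls and at 15.9, 15.3 and 14.2 FPKM in cKO libraries, a log2 fold change of -0.28 (SE 0.11, unadjusted p = 0.0348 in limma). Every cKO library lay below both controls for Satb1, and after GC correction the unadjusted p was 0.0133. Without control 2, cKO 2 or cKO 3 it was 0.205, 0.0601 and 0.117. Dlx1, of the Dlx family that starts GABAergic fate, was at 3.24 and 2.43 FPKM in controls and at 2.29, 1.25 and 2.45 FPKM in cKO libraries (log2 fold change -0.37, unadjusted p = 0.121). Its log2 fold change was -0.22 without control 1, -0.18 without cKO 2 and -0.49 (unadjusted p = 0.0195) with the replicate block, while Dlx2, Dlx5 and Dlx6 were under the filter. Dlx1 shares 335 of 5396 exonic bases with its antisense gene Dlx1as.

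Among genes that accompany Pvalb, Tac1, the precursor of substance P, was at 3.97 and 2.58 FPKM in controls and at 7.03, 6.24 and 4.75 FPKM in cKO libraries, a log2 fold change of 0.72 (SE 0.19, unadjusted p = 0.00596 in limma). Every cKO library lay above both controls, and without control 2 the unadjusted p was 0.0544. Kcnc2, a potassium channel of fast-spiking cells, was at 16.4 and 16.0 FPKM in controls and at 14.1, 15.9 and 16.0 FPKM in cKO libraries. Among 7 genes that accompany Sst, 6 were tested, with a median log2 fold change of -0.19, which was -0.33 without control 1 and -0.08 without cKO 1. Elfn1, a synaptic adhesion protein that shapes excitatory input to Sst cells, was at 6.84 and 6.20 FPKM in controls and at 4.72, 3.72 and 5.19 FPKM in cKO libraries, a log2 fold change of -0.45 (SE 0.15, unadjusted p = 0.0173 in limma), and without control 1 the unadjusted p was 0.0936. Cort, the somatostatin-related peptide cortistatin, was at 6.79 and 5.80 FPKM in controls and at 6.16, 2.14 and 5.23 FPKM in cKO libraries (log2 fold change -0.49, unadjusted p = 0.160), and its log2 fold change was -0.12 without cKO 2 and -0.72 (unadjusted p = 0.0288) without cKO 1. Crhbp, the binding protein of corticotropin-releasing hormone, was at 12.6 and 13.9 FPKM in controls and at 8.64, 12.2 and 13.8 FPKM in cKO libraries.

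None of 9 genes that accompany Vip and Cck passed an unadjusted p of 0.05 with genotype alone in the model. Cxcl14, a chemokine and the most abundant of them, was at 68.3 and 66.5 FPKM in controls and at 67.6, 63.7 and 58.6 FPKM in cKO libraries. Tac2, the precursor of neurokinin B, was at 2.65 and 1.89 FPKM in controls and at 2.43, 3.48 and 5.11 FPKM in cKO libraries (log2 fold change 0.49, unadjusted p = 0.0780), and its log2 fold change was 0.69 (unadjusted p = 0.00826) without cKO 1, 0.32 without control 2 and 0.27 without cKO 3. Of 4 genes that accompany neurogliaform cells none passed in that model either. Ndnf, a secreted protein of these cells, was at 2.66 and 3.31 FPKM in controls and at 3.11, 4.31 and 4.58 FPKM in cKO libraries, a log2 fold change of 0.32 that was 0.45 (unadjusted p = 0.0207) without cKO 1 and 0.20 without control 1. Id2, a regulator of transcription also made elsewhere, was at 80.2 and 76.8 FPKM in controls and at 82.3, 80.9 and 76.4 FPKM in cKO libraries.

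**Figure D5:**
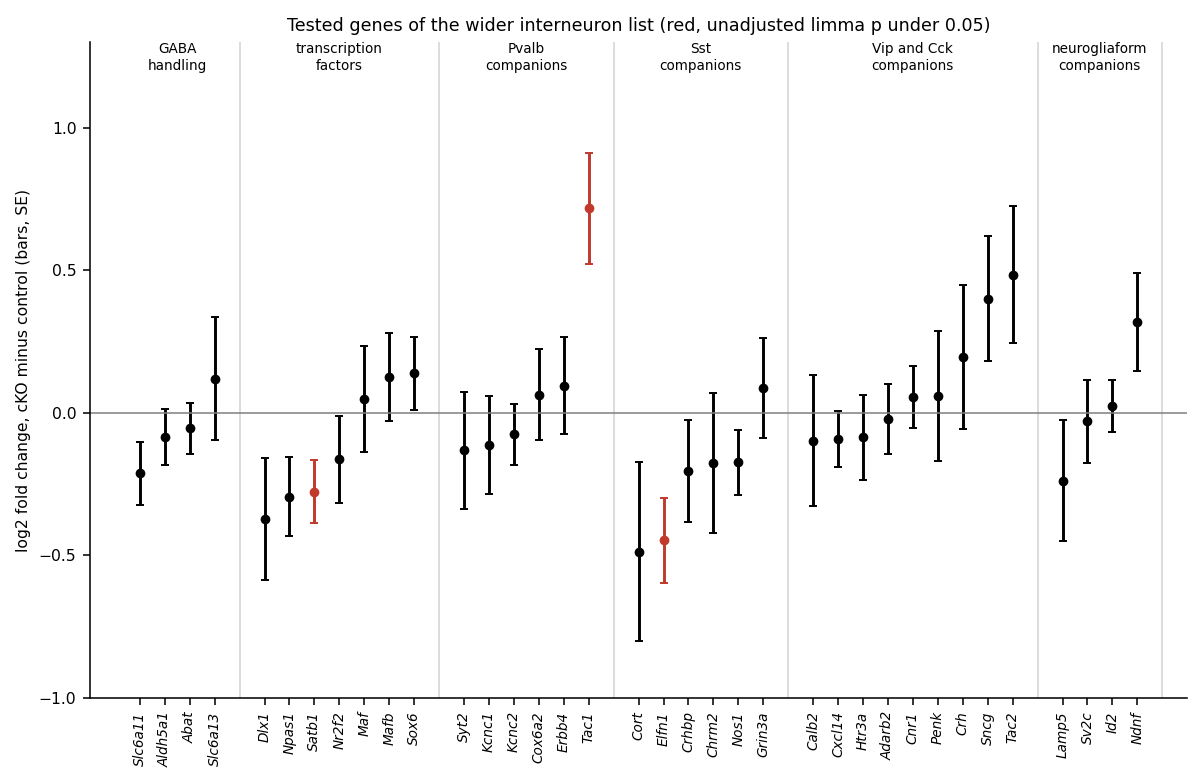
Log2 fold change, cKO over control (vertical axis), of the 36 other interneuron genes tested, in 6 roles that include GABA handling, with error bars of 1 SE and genes at an unadjusted p under 0.05 in red. Tac1, at 0.72, is the highest, and Cort, at -0.49, and Elfn1, at -0.45, are the lowest, although without cKO 2 Cort is at -0.12 and Elfn1 at -0.34.

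Markers of other cells were read beside these results. The 12 markers of hippocampal excitatory neurons summed to 1310 to 1319 FPKM in controls and 1055 to 1357 FPKM in cKO libraries. None passed an unadjusted p of 0.05 in limma with genotype alone in the model. With library set in the model 1 did, Zbtb20, higher in cKO mice, where 9.34% of all genes did. With the replicate block 3 did, Zbtb20 higher and Slc17a7 and Wfs1 lower, where 1430 of 12740 genes did. All 4 Cajal-Retzius markers were under the filter, with sums of 0.286 to 0.419 FPKM in controls and 0.196 to 0.890 FPKM in cKO libraries. Lhx5 was at 0 in both controls and in cKO 2, and at 0.296 FPKM in cKO 1 and 0.116 FPKM in cKO 3. The part of these cells in the Reln values was not tested. The 7 astrocyte markers summed to 1538 to 1557 FPKM in controls and 1808 to 1924 FPKM in cKO libraries, and 2 of them, Gfap and Aqp4, were higher at an unadjusted p under 0.05, where 4.36% of all genes passed. With library set in the model 5 of the 7 were higher at an unadjusted p under 0.05, where 9.34% of all genes passed, and Aqp4, the astrocyte water channel, had an adjusted p of 0.0187. The 6 oligodendrocyte markers summed to 1558 to 1817 and 1524 to 1979 FPKM, and the 6 microglia markers to 138 to 169 and 139 to 172 FPKM. Of tissues next to the hippocampus, 6 striatal markers summed to 19 to 22.7 FPKM in controls and 18.1 to 21.6 FPKM in cKO libraries. Of these 3 were tested, with none at an unadjusted p under 0.05 in limma. The 5 thalamic markers summed to 24.9 to 25.6 FPKM in controls and 21.4 to 23.1 FPKM in cKO libraries. Slc17a6, a glutamate transporter of the thalamic list, had a log2 fold change of -0.62 (unadjusted p = 0.0104 in limma). The rest of that list varied, with Lef1 at -0.24 (unadjusted p = 0.211), Rora at -0.04 (0.779) and Prkcd at 0.10 (0.476) in limma. Tcf7l2 was under the filter. The part of neighbouring tissue and of astrocytes in the Slc32a1 difference was not tested.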

How the data were processed

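Hippocampal RNA of 5 mice (2 control, 3 Hdac1 cKO) was sequenced from TruSeq Total RNA libraries. The authors aligned reads with Tophat2 and Bowtie and computed the deposited FPKM with Cufflinks 2.0.0 and the mm9 annotation; library totals of FPKM were 565363 to 636705, and counts were not used here. Groups came from the sample titles. The members and gene lists were chosen with earlier results of these data known. Log2(FPKM + 1) was kept for 12740 genes whose mean reached 1 FPKM and was fitted by genotype with limma 3.58.1 (lmFit, eBayes with trend, two-sided) in R 4.3.3, with Benjamini-Hochberg adjustment over all tested genes, after a test on simulated data. Named genes are all members and, per role of the other lists, those at an unadjusted p under 0.05, the largest change and the most abundant. GC content came from GENCODE vM1 transcripts (90.8% of symbols matched). Of 22 named genes searched (Ndnf was not matched) 1, Abat, matched another gene at 95% or more over 200 bases (BLAST 2.17.0). That match was Gm9851, at 100% over 2315 bases, as many as their exons share on opposite strands. Some genes of the lists are not reported here and were left out of the lists' counts, though kept in the fit. Alternatives were a pseudocount of 0.1, no filter, a minimum mean of 5 FPKM, median-ratio, TPM and quantile scaling, no variance trend, replicate and set blocks and leaving out each library. GC correction was added after seeing the data. FPKM alone give no exact counting error, and Slc32a1 rests on few fragments.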

Additional observations from a re-analysis of the deposited data

How the results depend on the processing

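Slc32a1 was lower, at an unadjusted p under 0.05, under all 17 alternatives, and at no adjusted p under 0.05 in any. Genes at an adjusted p under 0.05 numbered 1, and 14 with the replicate block, 5 with the library set block, 3 with GC correction and set block, 5 with GC correction and replicate block, and 1 to 5 with a library left out. Genes at an unadjusted p under 0.05 numbered 555, and 836 with no filter, 1430 and 1190 under the replicate and library set blocks, 1194 and 1244 with GC correction and the set or replicate block, and 387 to 970 with a library left out. Genes past the fold change and p rule numbered 84, and 142 at a pseudocount of 0.1, 43 at a minimum mean of 5 FPKM, 133 with the replicate block, and 92 to 231 with a library left out. Members at an unadjusted p under 0.05 numbered 1, and 2 with the replicate or set block. Of the other interneuron genes 3 passed it, and 8 with the replicate block (Dlx1, Satb1, Npas1, Elfn1, Crhbp, Cort and Calb2 lower, Tac1 higher), in which cKO 3, having no control of its number, adds nothing to the difference. Replicate numbers pair only 2 mice each, and their deviations correlated at r = 0.402 and 0.269 over 12740 genes. Mice of the same number also shared a library set, so these correlations cannot tell pairing by number from library set. The members' median was 0.0091, and -0.1678 to 0.0668 with a library left out, the lowest without control 1. The following changed sign: Lhx6 (0.00295 at a pseudocount of 0.1, 0.00676 with quantile scaling, 0.0472 with GC correction, 0.0146 with GC correction and replicate block, -0.2065 to 0.206 leaving out a library), Pvalb (-0.0475 with TPM, -0.00639 with quantile scaling, -0.0269 and -0.00576 under the replicate and library set blocks, -0.00538, -0.0151 and -0.0359 with GC correction alone, with set block and with replicate block, -0.0269 to 0.106 leaving out a library), Vip (-0.0125 and -0.0106 with GC correction and set or replicate block, -0.0694 to 0.2916 leaving out a library), Cck (-0.0243 with TPM, -0.0149 with quantile scaling, -0.0369 to 0.0955 leaving out a library), Id2 (-0.0414 with TPM, -0.0196 with quantile scaling, -0.0442, -0.0163 and -0.0152 with GC correction alone and with each block), Cxcl14 (0.0136 with GC correction and replicate block), and, leaving out a library, Npy (-0.1961 to 0.466, the lowest without control 1), Gad1 (-0.1889 to 0.1033, the highest without control 2), Gad2 (-0.1467 to 0.0302) and Id2 (-0.00608 to 0.0559). The cause was not tested. The median of all genes moved by less than 0.1 under every scaling.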

Other observations

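The 5 genes whose course over the 5 libraries was most like the mean log2(FPKM + 1) of Gad1, Gad2 and Slc32a1, among 6117 candidates, were Hap1, Hk1, Atp2a2, Inpp4a and Armcx4, with root mean square differences of 0.0171, 0.0249, 0.0264, 0.0273 and 0.0275 after centring. Hap1 was at 37.4 and 42.4 FPKM in controls and at 33.2, 33.1 and 35.4 FPKM in cKO libraries. This is a description over 5 libraries that share their sets, with no test. Dlx6, chosen after its values were seen, was at 1.33 and 1.24 FPKM in controls and at 0.786, 0 and 0.489 FPKM in cKO libraries, under the filter.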
